A study of Mus musculus with 8 samples.

Results

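Olfactomedin 1 (Olfm1) was measured in uterine RNA of pregnant mice at gestational day 18, by all 3 probe sets that carry the gene symbol Olfm1 in the platform annotation, out of 28000 probe sets in the deposited table. The 8 arrays, Affymetrix mouse 430 2.0 GeneChips, hold RNA of 4 Cox-1 KO mice and 4 wild-type mice, each hybridized with the RNA of 1 mouse. The Cox-1 KO mice lack Ptgs1, the gene of cyclooxygenase-1, in all cells, and per the labels have a mixed C57BL/6 and Sv129 background. The wild-type mice are C57BL/6, and all mice were females of 6 to 16 weeks with no other treatment. Per the methods, fetuses, membranes and placentas were taken off the uterus before RNA was made. Genotype and strain background therefore cannot be told apart in any comparison of these arrays. The probe sets were chosen by gene symbol, and the gene was selected on its difference in signal between the genotypes on these arrays, so its own signals are given as a description without a test. The deposited signals were computed with MAS5 and scaled to a target intensity of 1000 on each array.

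Olfm1, also called noelin or pancortin, is a secreted glycoprotein that is best known from neurons. It belongs to the olfactomedin proteins, which share an olfactomedin domain at their C-terminal end. Its transcripts begin at alternative start sites and end in alternative last exons, and the short forms lack the olfactomedin domain. In human endometrium OLFM1 is known as a gene that is low in the receptive phase, and the added protein hampers the attachment of trophoblast spheroids to epithelial cells in culture. Late in mouse pregnancy, prostaglandin F2α made through cyclooxygenase-1 brings about the loss of the corpus luteum that precedes labor.

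RefSeq lists 4 transcripts of mouse Olfm1, and 2 start sites on the plus strand of chromosome 2 that lie 12596 bases apart. The 250 bases before each start (GRCm38.p6, credited to RefSeq) are shown because the transcripts from either start belong to the same gene symbol, and the annotation used here does not say which of them each probe set reads. Capitals mark the letters GGGCGG or their reverse complement, the core of a GC box.
Upstream start, chr2:28192843-28193092: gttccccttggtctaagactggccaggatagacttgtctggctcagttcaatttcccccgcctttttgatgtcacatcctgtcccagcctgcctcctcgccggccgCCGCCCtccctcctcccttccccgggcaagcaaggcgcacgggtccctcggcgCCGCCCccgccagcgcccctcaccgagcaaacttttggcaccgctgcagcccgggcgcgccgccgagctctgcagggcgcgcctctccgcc
Downstream start, chr2:28205439-28205688: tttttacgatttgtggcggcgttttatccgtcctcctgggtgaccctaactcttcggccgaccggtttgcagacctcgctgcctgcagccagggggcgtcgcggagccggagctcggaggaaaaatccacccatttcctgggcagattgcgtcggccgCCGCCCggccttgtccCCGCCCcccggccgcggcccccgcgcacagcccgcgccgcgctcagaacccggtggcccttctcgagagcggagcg
Both stretches have 69.2% G and C, where the median over 32851 such stretches of mouse genes was 52.4%. Each holds 2 matches of GGGCGG over both strands, a motif that was present in 32.7% of all stretches. Neither holds TATAAA (present in 12.4% of stretches), AGGTCA, the half-site of an estrogen response element (14%), AGAACA, the half-site of a progesterone response element (16.1%), or TGACGTCA, the cyclic AMP response element (1.5%), on either strand. These are matches of letters in a window and nothing was measured at them.

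Olfm1 signal was lower in the Cox-1 KO uterus on each of its probe sets, at 0.416 to 0.464 of the wild-type mean. On probe set 1425784_a_at the signal was 5618, 6897, 3348 and 2685 on Cox-1 KO replicates 1 to 4, against 9740, 11061, 9994 and 9199 on wild-type replicates 1 to 4. The highest Cox-1 KO signal did not reach the lowest wild-type one, so the genotypes did not overlap. The mean was 4637 ± 1961 in Cox-1 KO uterus and 9998.5 ± 782 in wild-type uterus (SD, n = 4 each). On the log2 scale the difference, Cox-1 KO minus wild-type, was -1.21 with a limma standard error of 0.242. Standard errors here and below are those of limma, with variances drawn towards those of other probe sets. For each Olfm1 probe set this value is smaller than its own spread over these arrays would give.

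On probe set 1426562_a_at the Cox-1 KO arrays had signals of 3163, 3655, 2259 and 1624, and the wild-type arrays had 6009, 6791, 6379 and 5898. The means were 2675 ± 909 in Cox-1 KO uterus and 6269 ± 404 in wild-type uterus (SD, n = 4 each), with a log2 difference of -1.29 (standard error 0.203). The genotypes again did not overlap. This probe set had the tightest wild-type arrays of the 3, within 1.15-fold of each other from lowest to highest. On probe set 1455796_x_at the signals were 2971, 3296, 1439 and 1558 in Cox-1 KO uterus, against 5875, 5116, 6005 and 5296 in wild-type uterus. The means were 2316 ± 954 in Cox-1 KO and 5573 ± 433 in wild-type uterus (SD, n = 4 each), and the log2 difference was -1.36 (standard error 0.238). By the manufacturer's naming, the ending _x_at marks a probe set with some probes that may also bind other transcripts, and _a_at one that reads several transcripts of a gene.

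**Figure D1:**
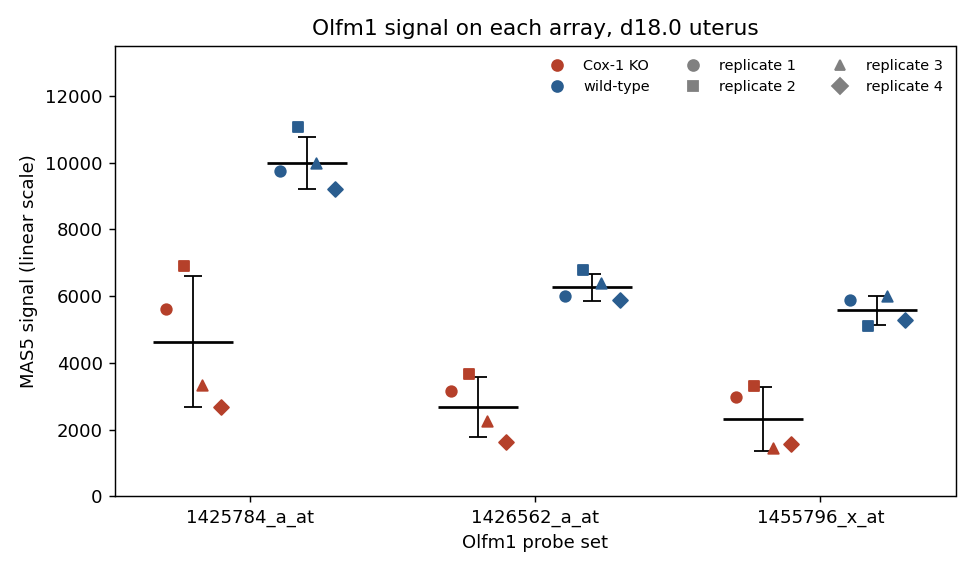
MAS5 signal (linear axis) of the 3 Olfm1 probe sets on each array, with Cox-1 KO left of wild-type for each probe set. Points are single arrays, horizontal bars are means and whiskers are the SD (n = 4 each). On probe set 1426562_a_at the Cox-1 KO arrays lie between 1624 and 3655 and the wild-type arrays between 5898 and 6791.

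Low probe sets were dropped by asking for 4 arrays at a signal of 100 or above, which left 26444. Among these the Olfm1 differences ranked 33rd (1425784_a_at), 20th (1426562_a_at) and 14th (1455796_x_at) from the most negative. A log2 difference of -1 or less was found for 0.227% of these probe sets. All Cox-1 KO arrays lay below all wild-type arrays for 2.91% of them, and for 3 of 3 probe sets of Olfm1. These shares describe where Olfm1 stands and carry no test, as this contrast was used to choose the gene.

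The 3 probe sets were alike in the genotype difference and in how single Cox-1 KO arrays departed from the mean of their genotype. Their log2 differences lay between -1.36 and -1.21. The widest gap, 0.15, was between 1425784_a_at and 1455796_x_at, whose gap on single arrays had an SD of 0.18 within genotypes. After the mean of each genotype was taken away, the log2 signals of 1425784_a_at and 1426562_a_at had a Pearson r of 0.98 over the 8 arrays. The r was 0.92 between 1425784_a_at and 1455796_x_at and 0.86 between 1426562_a_at and 1455796_x_at. The Cox-1 KO arrays weigh most in these r, as their SD of log2 signal was 0.52 to 0.63, against 0.09 to 0.11 in wild-type. The probe sets are not replicates, and these values are descriptions, since all were hybridized on the same 8 arrays and may share probes. Among the wild-type arrays, probe set 1455796_x_at did not follow the order of the other probe sets. Wild-type replicate 2 was its lowest wild-type array and their highest.

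The Cox-1 KO arrays differed among themselves far more than the wild-type arrays did. Averaged over the 3 probe sets on the log2 scale, the Olfm1 level was 53.4% of the wild-type mean on Cox-1 KO replicate 1, and 62.1, 31.5 and 26.9% on replicates 2, 3 and 4. The wild-type arrays stood at 93.9 to 103% of their mean. Thus Cox-1 KO replicates 3 and 4 had the lowest Olfm1 of all arrays, and replicates 1 and 2 lay between them and the wild-type arrays on every probe set. The SD of log2 signal was 0.63, 0.52 and 0.62 among Cox-1 KO arrays for 1425784_a_at, 1426562_a_at and 1455796_x_at. It was 0.11, 0.09 and 0.11 among wild-type arrays for the same probe sets. Of the 26444 probe sets, 3.88%, 6.28% and 4.09% had a Cox-1 KO SD at least as large as these, while 70.5%, 78.7% and 70.0% had a wild-type SD at least as large. No test of the difference in spread was made.

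**Figure D2:**
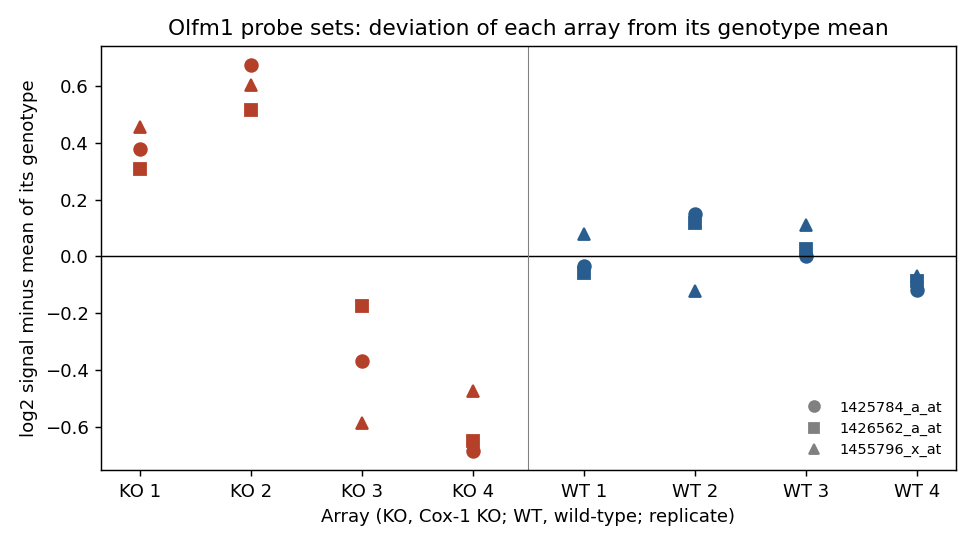
Log2 signal of each Olfm1 probe set minus the mean of its genotype, for each Cox-1 KO (KO) and wild-type (WT) array. Symbols are probe sets. Cox-1 KO replicates 1 and 2 lie above the mean of their genotype and replicates 3 and 4 below it on all 3 probe sets, and wild-type arrays stay closer to 0.

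The deleted gene and the state of the arrays bear on these values as follows. Ptgs1 had signals of 88, 122, 76 and 136 on the Cox-1 KO arrays, against 7048, 10610, 10756 and 10508 on the wild-type arrays, so the arrays matched their labels. The arrays had median signals between 731 and 757 over all probe sets. Of the 26444 probe sets, 3 passed a limma adjusted p under 0.05 (0.0113%), 2 of them lower in Cox-1 KO uterus (0.00756%), and the median log2 difference over all of them was -0.03. Apoa1, an apolipoprotein of yolk sac and liver, had signals of 69038, 796, 58425 and 51184 on Cox-1 KO replicates 1 to 4, against 342, 615, 842 and 50275 on wild-type replicates 1 to 4. A list of yolk sac transcripts, 11 measured of 15, had a summed signal of 43775 to 373750 on Cox-1 KO arrays and 32039 to 256304 on wild-type arrays, and all 11 genes had a higher mean in Cox-1 KO uterus (median log2 difference 3.06). None passed with limma (smallest adjusted p = 0.421), and none passed the methods' t-test with its ratio, that is, an unadjusted threshold of 0.05 and mean signals at least 1.5-fold apart. At an unadjusted p under 0.05, 7 were higher, which is 63.6% of the list against 3.69% of all probe sets. The mean log2 signal of the list, relative to its mean over all arrays, was 2.25 to 2.99 on Cox-1 KO replicates 1, 3 and 4 and wild-type replicate 4. It was -2.76 to -2.46 on the other arrays, so the 7 genes are not 7 separate results. Rbp4, the retinol-binding protein of plasma, had the smallest p of the list, with means of 36293 in Cox-1 KO and 30451 in wild-type uterus.

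The Olfm1 difference was smaller when only the arrays low in Apoa1 signal were set side by side. Cox-1 KO replicate 2, the only Cox-1 KO array low in Apoa1, had the highest Cox-1 KO signal on all 3 probe sets of Olfm1. Set against wild-type replicates 1 to 3, which are also low in Apoa1, it had log2 differences of -0.57, -0.80 and -0.78 for 1425784_a_at, 1426562_a_at and 1455796_x_at, where all arrays gave -1.21, -1.29 and -1.36. This comparison has 1 Cox-1 KO array. Wild-type replicate 4 alone in its genotype had much Apoa1, and was the lowest wild-type array on 1425784_a_at and 1426562_a_at and lay above every Cox-1 KO array. Among the arrays high in Apoa1, Cox-1 KO replicates 1, 3 and 4 stood at 53.4, 31.5 and 26.9% of the wild-type Olfm1 mean. Wild-type replicate 4 stood at 93.9% of it (averages over the 3 probe sets), so the smaller difference was not seen among these arrays. With the level of yolk sac transcripts as a covariate the Olfm1 differences were -0.93, -1.09 and -1.13. Within Cox-1 KO uterus replicate 1 had the highest Apoa1 signal and more Olfm1 than replicates 3 and 4. The part of yolk sac transcripts in the Olfm1 difference was not tested.

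Other genes of the olfactomedin family did not pass between the genotypes. Of 12 listed genes other than Olfm1, 6 were measured and the other 6 were not analysed here. Of the 6, 4 had a higher and 2 a lower mean in Cox-1 KO uterus, with a median log2 difference of 0.10. None passed with limma (adjusted p = 0.631 or more over all probe sets), none had an unadjusted p under 0.05, where 8.81% of all probe sets did, and none passed the methods' t-test with its ratio. Olfm4, a secreted glycoprotein of intestinal crypts and neutrophils, had signals of 3055, 3975, 494 and 1066 in Cox-1 KO uterus, against 324, 498, 2210 and 1367 in wild-type uterus. Its arrays overlapped widely in both genotypes (log2 difference 0.93, standard error 0.701), and within Cox-1 KO uterus replicates 3 and 4 were again its lower arrays.

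Olfml3, a secreted protein that promotes the breakdown of chordin in frog embryos, had signals of 11409, 16008, 14335 and 13835 in Cox-1 KO uterus and 17788, 16470, 15603 and 13354 in wild-type uterus. The genotypes overlapped (log2 difference -0.19, standard error 0.107, limma adjusted p = 0.631). Olfml2b, a matrix protein with an olfactomedin domain, averaged 1461 ± 158 in Cox-1 KO and 1276 ± 180 in wild-type uterus (SD, n = 4 each). Olfml1 averaged 339 ± 83.7 in Cox-1 KO uterus and 307 ± 46.6 in wild-type uterus (SD, n = 4 each). The adhesion receptors Adgrl1 and Adgrl2 (latrophilins), which carry an olfactomedin domain outside the cell, had log2 differences of -0.12 and 0.07. Their other probe sets gave -0.16 and 0.14, in the same directions. The direction of Olfml1, Olfml2b and Adgrl1 turned when certain arrays were left out.

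**Figure D3:**
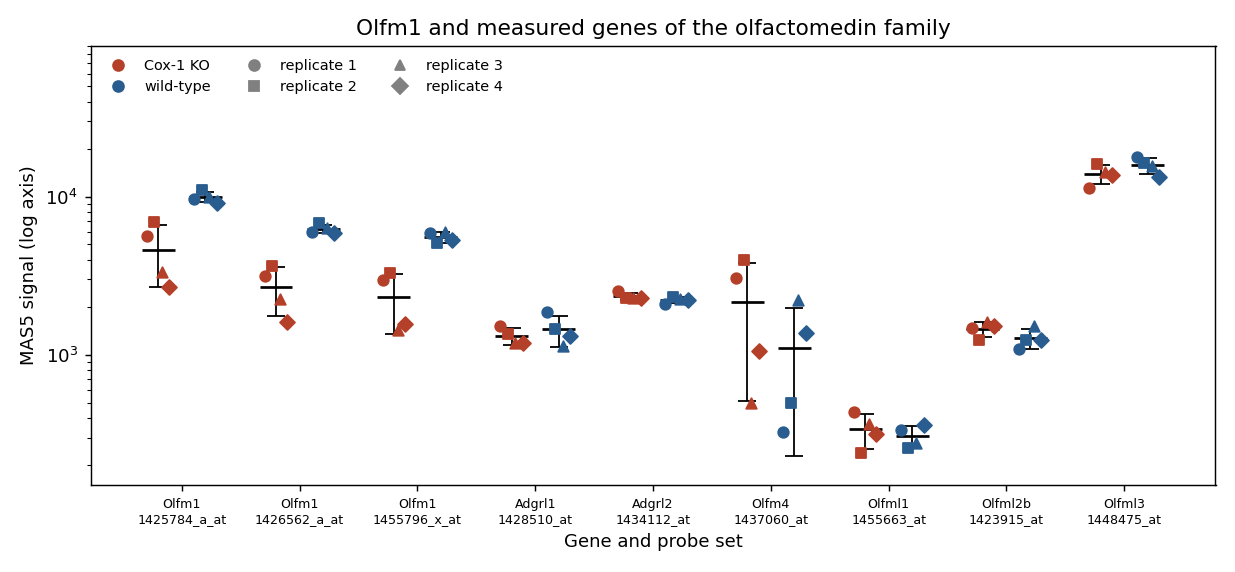
MAS5 signal (log axis) of the Olfm1 probe sets and of the 6 other measured olfactomedin family genes on each array, with Cox-1 KO left of wild-type. Points are single arrays, horizontal bars are means and whiskers the SD (n = 4 each). The genotypes separate on the 3 Olfm1 probe sets and overlap for the 6 other genes, and levels cannot be set against each other between probe sets.

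Proteins that bind Olfm1 in brain include the Nogo receptor complex, AMPA-type glutamate receptors and the WAVE1 protein. Of 12 genes in a list of such partners 9 were measured, 2 with a higher and 7 with a lower mean in Cox-1 KO uterus (median log2 difference -0.08). None passed with limma, 2 were lower at an unadjusted p under 0.05 (5.12% of all probe sets), and 1, Gria3, passed the methods' t-test with its ratio, which 0.862% of all probe sets did. Gria3, a subunit of AMPA receptors, had signals of 528, 465, 457 and 511 in Cox-1 KO uterus, against 990, 666, 675 and 673 in wild-type uterus. Its genotypes did not overlap, which held for 4.41% of all probe sets in either direction (log2 difference -0.60, standard error 0.142, limma adjusted p = 0.309). The ratio of its mean signals, 1.53, was close to the limit of 1.5. Without wild-type replicate 1, at 990, the log2 difference was -0.46. Unlike Olfm1, Gria3 was even among the Cox-1 KO arrays, and its deviations had an r of -0.06 with those of Olfm1.

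Gria4, another AMPA receptor subunit, was near the filter in Cox-1 KO uterus, at 136, 98, 119 and 100, against 607, 236, 124 and 196 in wild-type uterus. Its highest Cox-1 KO array lay above wild-type replicate 3, and the limma adjusted p was 0.53. Ngfr, the p75 neurotrophin receptor that signals with the Nogo receptor, had signals of 2415, 2602, 1949 and 1973 in Cox-1 KO uterus and 4499, 2810, 2575 and 2096 in wild-type uterus. These overlapped (log2 difference -0.37, limma adjusted p = 0.603). Rtn4, which encodes Nogo, averaged 27472 ± 231 in Cox-1 KO and 26331 ± 1245 in wild-type uterus (SD, n = 4 each; log2 difference 0.06).

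Olfm1 is linked to Wnt signalling by work on human oviduct epithelium. Of 14 listed targets of beta-catenin 7 were measured, 3 higher and 4 lower, with a median log2 difference of -0.01. None passed with limma or the methods' t-test with its ratio, and 1, Ccnd1, was lower at an unadjusted p under 0.05, as were 5.12% of all probe sets. Ccnd1, cyclin D1 of the early cell cycle, had signals of 5275, 5290, 4515 and 4722 in Cox-1 KO uterus, against 6017, 5845, 5828 and 5646 in wild-type uterus. All Cox-1 KO arrays were lower, replicates 3 and 4 the lowest as for Olfm1 (log2 difference -0.24, standard error 0.0658, limma adjusted p = 0.421).

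Because Olfm1 is a neuronal gene, markers of nerves and of the cell types of the uterus were read on the same arrays. In whole tissue, fewer cells of a type and less RNA per cell cannot be told apart. Of 12 neuron and nerve fibre genes 4 were measured, and their summed signal was 1870 to 2110 on Cox-1 KO arrays, against 2128 to 2846 on wild-type arrays, without overlap. Of the 4 genes 1 was higher and 3 lower (median log2 difference -0.27), none passed with limma or the methods' t-test with its ratio, and 1 was lower at an unadjusted p under 0.05 (5.12% of all probe sets). None of the 4 separated the genotypes by itself, as 4.41% of all probe sets did. Prph and Nefl were under the filter, and the other 6 listed genes were not analysed here. Uchl1, a ubiquitin hydrolase abundant in neurons, had signals of 1143, 1057, 1357 and 965 in Cox-1 KO uterus and 1037, 1757, 1909 and 1714 in wild-type uterus (limma adjusted p = 0.533). Gap43, a growth-cone protein, had means of 280 ± 62.8 in Cox-1 KO and 377 ± 80.5 in wild-type uterus (SD, n = 4 each). The mean log2 signal of the list, relative to its mean over all arrays, was -0.18, -0.13, -0.14 and -0.05 on Cox-1 KO replicates 1 to 4, so replicates 3 and 4 were not its lowest arrays. The part of nerve transcripts in the Olfm1 difference was not tested.

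The other lists of cell types and near-term genes had median log2 differences of -0.07 to 0.46 and no member past the limma threshold. Smooth muscle genes, all 10 measured, had a summed signal of 287682 to 310538 on Cox-1 KO arrays and 278097 to 313712 on wild-type arrays, with a median log2 difference of -0.06. Stroma and decidua genes, 12 of 12 measured, had a median of -0.01. Their sums were 227655 to 264770 in Cox-1 KO and 227535 to 248231 in wild-type uterus. Of 14 epithelial genes 12 were measured, 11 higher and 1 lower in Cox-1 KO uterus, with sums of 165281 to 197584 in Cox-1 KO uterus and 124851 to 176352 in wild-type uterus (median 0.16). Endothelial genes, 7 of 7, had a median of -0.07 and mesothelial genes, 5 of 5, a median of 0.35. Schwann cell genes were read by 2 of 9 and trophoblast genes by 4 of 10, with medians of 0.06 and 0.46. Steroid receptors and near-term genes, 7 of 9, had a median of 0.04, and among them Esr1, the estrogen receptor, averaged 15053 ± 888 in Cox-1 KO and 16863 ± 1408 in wild-type uterus (SD, n = 4 each). At an unadjusted p under 0.05 there were 3 lower smooth muscle genes, 1 lower endothelial gene, 1 lower near-term gene, and 1 higher gene each for epithelium, stroma and mesothelium. Over all probe sets 5.12% were lower and 3.69% higher, or 8.81% together, against 30% of the smooth muscle genes and 8.33% of the epithelial and of the stromal genes. The share was 14.3% of the endothelial and of the near-term genes and 20% of the mesothelial genes. The genotypes separated for 1 smooth muscle gene (10%) and 1 endothelial gene (14.3%), against 4.41% of all probe sets. The methods' t-test with its ratio called no gene of these lists. The single genes with the smallest p were Smtn in smooth muscle, Wnt4 in stroma, Krt18 in epithelium, Pecam1 in endothelium, Msln in mesothelium, Erbb3 among Schwann cell genes and Rhox6 in trophoblast, with limma adjusted p-values of 0.423 to 0.628.

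Olfm1 and Ptgs1 lie on the same chromosome, chromosome 2, with 105 measured genes between them in the order of the RefSeq annotation. The 20 nearest measured genes, 10 on each side of Olfm1, had log2 differences of -0.25 to 0.20 and a median of 0.01, 11 higher and 9 lower. None passed with limma (smallest adjusted p = 0.606), none had an unadjusted p under 0.05 (8.81% of all probe sets did), none separated the genotypes, and none passed the methods' t-test with its ratio. The genes on either side of Olfm1 are Col5a1, a fibrillar collagen chain, with a log2 difference of -0.01 (standard error 0.0609), and Ppp1r26, a phosphatase regulator, with 0.01 (standard error 0.178). The smallest p-values among the 20 were those of Ralgds (log2 difference 0.20), Brd3 (-0.12), Tsc1 (0.13) and Ddx31 (-0.20). The widest of the 20 was Slc2a6, a glucose transporter, at -0.25, where Olfm1 had -1.21.

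Of the 105 genes between Olfm1 and Ptgs1, 58 were higher and 47 lower in Cox-1 KO uterus, with a median log2 difference of 0.03. None passed with limma (smallest adjusted p = 0.107), while 6 were higher (3.69% of all probe sets were) and 9 lower (5.12%) at an unadjusted p under 0.05, which makes 14.3% of them against 8.81% of all probe sets. The genotypes separated for 8, or 7.62%, against 4.41% of all probe sets. By the methods' t-test with its ratio 1 gene of the 105 passed, Cercam, where 0.862% of all probe sets did.

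Cercam, a protein related to collagen galactosyltransferases, was lower in mean in Cox-1 KO uterus. Its probe set, which the study's file lists under the symbol 2600006K01Rik, had signals of 1325, 1461, 622 and 835 in Cox-1 KO uterus, against 2477, 2079, 2790 and 2406 in wild-type uterus. Cox-1 KO replicates 3 and 4 were the lowest arrays and replicates 1 and 2 lay between them and the wild-type arrays, as for Olfm1. The log2 difference was -1.28 with a standard error of 0.232 (limma adjusted p = 0.147), and its deviations from the genotype means had an r of 0.79 with those of Olfm1 over 8 arrays. That r ranked 303rd of 12662 genes, below the 99th percentile of 0.86. The r of its log2 signal over the 8 arrays, which also holds the genotype difference, was 0.94 and ranked 14th. By the annotation used here 2600006K01Rik is the next measured gene after Cercam, with a log2 difference of -0.63 (standard error 0.247) on another probe set. Which of these neighbours the Cercam probe set reads was not checked. Rbm18, an RNA-binding protein encoded close to Ptgs1, had 1665, 1557, 1646 and 1620 in Cox-1 KO uterus, against 2173, 1998, 2226 and 2207 in wild-type uterus. It was even within each genotype (log2 difference -0.41, standard error 0.069, limma adjusted p = 0.107). Lrrc8a, a subunit of volume-regulated anion channels, and Ptges2, a prostaglandin E synthase, had higher means in Cox-1 KO uterus, with log2 differences of 0.35 and 0.32 (limma adjusted p = 0.266 and 0.488).

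**Figure D4:**
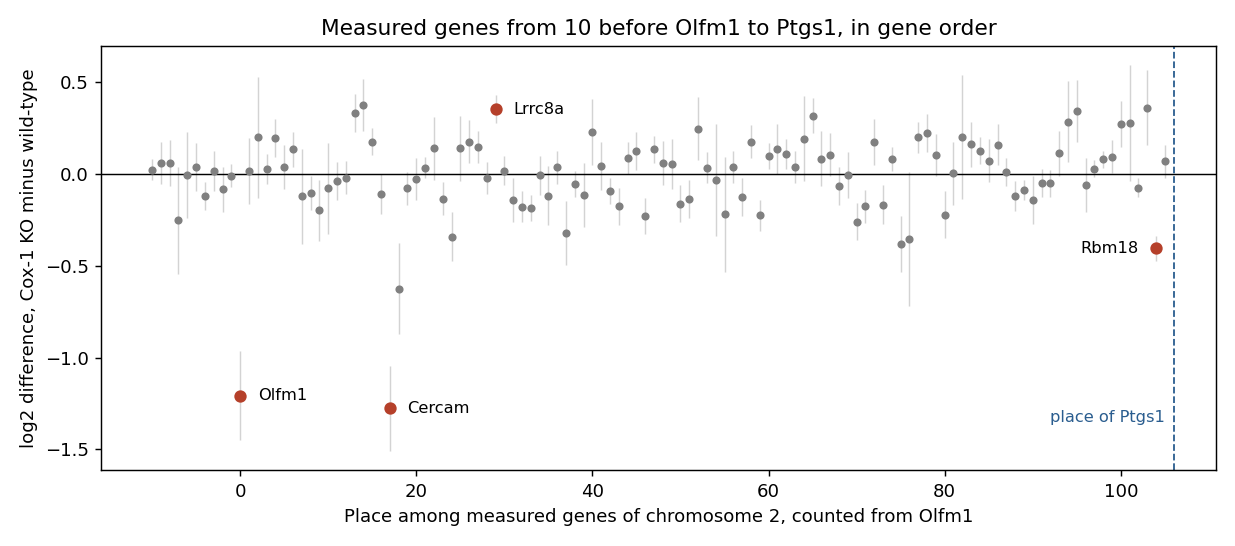
Log2 difference, Cox-1 KO minus wild-type, of the measured genes of chromosome 2 from 10 before Olfm1 up to Ptgs1, plotted by their place in gene order (1 probe set a gene, whiskers are the limma standard error). Olfm1 at -1.21 and Cercam at -1.28 lie below the other genes shown, and the dashed line marks the place of Ptgs1, which is not drawn.

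Genes whose signals followed Olfm1 over the arrays were sought among 12662 other genes, with probe set 1425784_a_at as the Olfm1 profile. Since the 8 arrays form 2 groups that differ in Olfm1, an r over all of them mostly restates the genotype difference, and the r of deviations from the genotype means is given beside it. That second r rests mostly on the 4 Cox-1 KO arrays, whose SD of Olfm1 log2 signal was 0.63, against 0.11 in wild-type. Over the 8 arrays 54 genes had a Pearson r above 0.9 and 24 an r below -0.9, and 9 genes exceeded 0.9 on both measures. The 8 highest were Ppp1r12b, AU015791, Acaa1a, Rgma, Ccnd1, Ccdc80, Srpx and Mef2a, with r of 0.95 to 0.97 and an r of deviations of 0.83 to 0.97. Their own differences were small, with log2 values of -0.35 to -0.08. All 8 share the low place of Cox-1 KO replicates 3 and 4, except that Srpx on replicate 3 equals its replicate 1 to within 1 unit of signal.

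Ppp1r12b, a regulatory subunit of myosin phosphatase, had signals of 4299, 4615, 3789 and 3706 in Cox-1 KO uterus, against 4815, 4769, 4887 and 4516 in wild-type uterus (r of 0.97, and 0.95 for deviations). Rgma, a co-receptor of bone morphogenetic proteins and a guidance cue for axons, had 579, 679, 522 and 435 in Cox-1 KO uterus, against 720, 682, 712 and 679 in wild-type uterus. Both genes had the order of Cox-1 KO arrays seen for Olfm1 on 1425784_a_at, with replicate 2 highest and replicate 4 lowest. Mef2a, a transcription factor of muscle and nerve, was in the highest group on both measures (r of 0.95, and 0.97 for deviations). The lowest r belonged to Polr2e, a subunit of RNA polymerases, Rab24, a small GTPase of autophagy, Prdm1, a transcription repressor of plasma cells, and Myl12b, a myosin light chain, at -0.96 to -0.93.

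By the r of deviations the 6 closest genes were Reep3, Lin7c, Acod1, Mef2a, Dnajc27 and Atp2b1, at 0.96 to 0.99. They are the highest of 12662 genes on a measure that mostly follows the Cox-1 KO arrays, and say little about likeness within wild-type uterus. Acod1, the enzyme that makes itaconate and a gene of the implanting uterus, had signals of 215, 516, 48 and 28 in Cox-1 KO uterus, against 216, 291, 351 and 144 in wild-type uterus. Its Cox-1 KO replicates 3 and 4 were the lowest of all arrays, near or under the filter, while replicate 2 was the highest. Reep3, which shapes the endoplasmic reticulum, had a mean log2 difference of 0.08, and an r of 0.05 over all 8 arrays. Over all 12662 genes 59 had an r of deviations above 0.9 and 27 below -0.9. The names depended on single arrays: of the 8 highest genes over 8 arrays, 1 to 3 were again among the 8 highest when an array was left out.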

How the data were processed

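RNA of single uteri was hybridized to Affymetrix 430 2.0 arrays, and the authors computed MAS5 signals, scaling every array to a target intensity of 1000. These intensities were deposited on a linear scale in whole numbers, without detection calls. Signals under 1 were set to 1 (1 value), taken to log2, and probe sets that reached a signal of 100 on 4 arrays were kept (26444), without the 60 array controls. No further normalization was applied. The platform annotation names 23579 probe sets with 1 gene symbol, 653 with several, which named no gene, and 3768 with none. Symbols were updated by gene ID (23521 matched). Ptgs1 was named through the study's additional file.

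Cox-1 KO was compared with wild-type by limma 3.58.1 (R 4.3.3; linear model, moderated variances with a trend), with Benjamini-Hochberg adjusted p-values over all kept probe sets (threshold 0.05). Beside it, the methods' t-test (unequal variances, log2 signal, unadjusted 0.05, ratio of mean signals of 1.5) was run. On simulated arrays with 50 probe sets changed at each size, limma found 28 at a log2 change of 0.585, 38 at 1, 48 at 2 and 49 at 3, with 5 false calls. All sizes were changed on the same simulated arrays and probe sets were drawn independently. Many true changes ease the adjusted threshold, so these counts can overstate what limma finds on the real arrays. A gene in a list was read on its brightest kept probe set. The Olfm1 gene, the lists (olfactomedin family, partners known from brain, beta-catenin targets, cell type markers, yolk sac, trophoblast, near-term genes, chromosome 2 neighbours) and the rules were chosen with earlier results of these data known. Named genes are the measured family members, up to 4 genes of each list with the smallest p, and the genes with the highest and lowest r to Olfm1. The 4 arrays a group limit the precision of every value. Nothing states separate litters, so p-values measure the spread between these mice. The labels and the methods differ in the name of the second strain (Sv129, 129P2) and in the lower limit of age.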

Additional observations from a re-analysis of the deposited data

Results flagged for a closer look

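No array stood apart from its genotype in Olfm1 on any probe set. Of 106 groups of 4 arrays tested among the named probe sets, 6 had a single array whose gap to the nearest other took up most of the range of the group, and chance gives about 1 in 20. Apoa1 had 50275 on wild-type replicate 4, where replicates 1 to 3 had 342 to 842. Ptgs1 had 7048 on wild-type replicate 1, against 10508 to 10756. Gria3 had 990 on wild-type replicate 1, against 666 to 675, and Tsc1 had 811 on wild-type replicate 2, against 932 to 954. Adgrl2 had 2542 on Cox-1 KO replicate 1, against 2278 to 2283, and Rhox6, a homeobox gene of trophoblast, had 203 on Cox-1 KO replicate 4, against 337 to 361.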

How the results depend on the processing

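Olfm1 was lower in Cox-1 KO uterus on all 3 probe sets under each of the 17 alternatives. The genotypes did not overlap in Olfm1 signal on any probe set, so most of these alternatives could not turn the sign. That holds for leaving out arrays, array weights, 32 added to each signal, the floor, the replicate block and the ratio of mean signals. The floor of 100 and the replicate block could not change the size of the Olfm1 differences either. Without the 4 arrays high in Apoa1, which leaves 1 Cox-1 KO and 3 wild-type arrays, its log2 differences were -0.57 (1425784_a_at), -0.80 (1426562_a_at) and -0.78 (1455796_x_at), and with each array left out in turn they were -1.43 to -0.98, -1.47 to -1.08 and -1.56 to -1.16. The probe sets past the limma threshold, 3 in all, were 12 with a floor of 100, 11 with median centring, 10 with 32 added to each signal before log2, 6 with a robust fit, 18 with array weights, 6 without the 4 arrays high in Apoa1 and 228 with the methods' t-test and ratio, unadjusted (2 after Benjamini-Hochberg). Leaving out an array gave 2 to 25, the most (25) without wild-type replicate 1, then 9 when Cox-1 KO replicate 2 or 4 was left out. No list gained a called gene under any limma alternative. The methods' t-test with its ratio, unadjusted, called 1 gene of the brain partners (Gria3) and 1 between Olfm1 and Ptgs1 (Cercam). Of the 8 genes with the highest r to Olfm1, 1 was shared with Spearman, 1 with deviations from the genotype means, and 1 to 3 with an array left out. Signs turned for Olfml1 with the yolk sac covariate (-0.15), without the 4 arrays (-0.28) and without Cox-1 KO replicate 1 (-0.014, the range with an array left out being -0.014 to 0.28), for Olfml2b without the 4 arrays (-0.041), for Adgrl1 without wild-type replicate 1 (0.011, range -0.23 to 0.011) and for Apoa1 with the covariate (-0.012). The causes were not tested. Replicate numbers are shared between the genotypes, and deviations of same-numbered arrays had r of -0.25, 0.22, -0.18 and 0.17. Arrays of different numbers were not set beside these, so the values cannot tell whether the numbers pair the arrays. Per the methods, samples were processed in balanced groups, which are not named. With the replicate block 3 probe sets passed. The Olfm1 differences stayed at -1.21, -1.29 and -1.36, as they must when each replicate number holds 1 array of each genotype. No depth can be given for arrays, and signals near 100 are close to background.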
